A study of Homo sapiens with 6 samples.

Results

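The pyruvate dehydrogenase kinases PDK1, PDK2, PDK3 and PDK4, the pyruvate dehydrogenase phosphatases PDP1 and PDP2, and the phosphatase regulatory subunit PDPR were followed in BT-549 cells grown in adipocyte conditioned medium (ACM) or unconditioned medium (UCM). The 7 genes were chosen by name as the kinases and phosphatases of 1 enzyme complex, and all 7 were found among the 63140 genes listed. All 7 entered the test, which covered 14451 genes, PDK4 through its ACM libraries alone. PDK4 rose from near the detection limit in UCM to a median of 17.8 CPM (expected counts scaled to library size) among the ACM libraries, and PDK1 rose 1.64-fold. No phosphatase gene passed the test of a difference between the media.

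The study grew wild-type BT-549 cells for 24 h in a 6-well plate in either medium, with 3 replicates of each. BT-549 is an established line from a triple negative breast tumour, and the labels call it epithelial. ACM was the supernatant of OP9 mouse stromal cells that had been differentiating into adipocytes in a medium with insulin, oleate and albumin. The labels give 50% ACM and the supplementary methods give undiluted ACM, so the dilution is uncertain. The composition of UCM was not found in the sources used here, so adipocyte secretions cannot be told apart from the oleate, insulin or base medium of ACM. Nothing in the labels says that the wells came from separate cultures, and p-values therefore measure the spread between these samples only, which may be technical. In bulk RNA, a smaller number of responding cells and a lower transcript level per cell cannot be told apart. Total expected counts ran from 17135288 to 21053257 per library. Of 10 epithelial, mesenchymal and receptor markers, VIM had 3168 CPM in ACM and 2930 in UCM and CDH2 had 184.4 and 185.5, while CDH1 was at 0.848 and 1.27, EPCAM at no more than 0.0317 in either mean, and ESR1 and PGR at 0. ERBB2, the other receptor marker listed, was at 74.0 CPM in ACM and 68.2 in UCM. KRT8, KRT18 and KRT19 had means of no more than 0.455 CPM. The epithelial label was thus not borne out by EPCAM or CDH1. Of 10 adipocyte markers, ADIPOQ, LEP, CIDEC, CIDEA and RETN were at 0 in every library, and the summed level of the list was 5.52 to 6.25 CPM in ACM and 5.64 to 7.85 CPM in UCM. CFD was at 2.48 CPM in ACM and 1.56 in UCM, and LIPE at 3.21 and 4.79. Neither passed the test of a difference. PLIN1, FABP4 and LPL had means of no more than 0.0498 CPM.

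The pyruvate dehydrogenase (PDH) complex sits in the mitochondrial matrix and turns pyruvate into acetyl-CoA. PDKs phosphorylate its E1 alpha subunit and switch the complex off, and PDPs remove the phosphate and switch it back on. The kinases differ in how they are controlled: PDK4 is the isoform classically induced by fasting and fatty acids through peroxisome proliferator-activated receptors (PPARs), and PDK1 is a textbook target of hypoxia-inducible factors (HIFs).

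PDK4 (ENSG00000004799) is a protein-coding gene on the minus strand of GRCh38 at chr7:95583499-95596516. The stretch before its annotated start is shown because PDK4 had the largest change of the 7 genes. It covers the 250 bases upstream of the start site (chr7:95596517-95596766, minus strand, GRCh38.p14, from RefSeq, 62.8% GC), printed 5′ to 3′.
PDK4 upstream: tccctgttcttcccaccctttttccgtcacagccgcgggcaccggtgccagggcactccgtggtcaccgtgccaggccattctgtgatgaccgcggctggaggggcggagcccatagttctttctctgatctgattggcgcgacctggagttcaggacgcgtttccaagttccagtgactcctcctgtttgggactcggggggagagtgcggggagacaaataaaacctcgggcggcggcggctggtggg
The window from 250 bases before to 50 bases after the start was searched on both strands for 4 motifs. These were the hypoxia response element core (ACGTG or GCGTG), the forkhead core (GTAAACA), a nuclear receptor half-site (AGGTCA) and a C/EBP-ATF composite element (TGATGNAA). The letters CACGTG count as a match on both strands. No match was found in the PDK4 window, whereas the motifs occur in 48.4%, 3.42%, 13.8% and 3.62% of 35116 promoters of that length. The absence says only that these letters are not in the window.

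PDK4 was nearly silent in UCM and present in every ACM library. UCM replicates 1 to 3 held 6, 11 and 3 expected counts, with exact Poisson 95% intervals of 2.2 to 13.1, 5.49 to 19.7 and 0.619 to 8.77 that cover counting error only. The ACM replicates held 212, 929 and 328. Every ACM value lay far above every UCM value, and ACM replicate 2 stood well above the other two. After scaling for library size, PDK4 was at 10.1, 52.3 and 17.8 CPM in ACM and at 0.284, 0.591 and 0.175 CPM in UCM, so that the lowest ACM library exceeded the highest UCM library 17.0-fold. The mean over the 3 libraries was 26.7 ± 22.5 CPM (SD, n = 3) in ACM, against 0.350 ± 0.216 CPM (SD, n = 3) in UCM. The log2 fold change (log2 FC), positive where ACM was higher, was 6.22 (SE 1.00, 74.4-fold), with an adjusted p-value of 0.0335 by edgeR's quasi-likelihood test with Benjamini-Hochberg adjustment. PDK4 ranked 3rd from the top among the 14451 genes by log2 FC. Genes near the detection limit in either medium reach the top of such a ranking readily. PDK4 entered the test through its ACM libraries alone, so the rank is no support for a difference.

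The size of the PDK4 response varied more among the ACM wells than that of nearly any other gene. The highest ACM library exceeded the lowest 5.19-fold, a ratio reached by 1.13% of the tested genes, and the coefficient of variation was 84.1%. PLIN2, a lipid droplet coat protein, had the same order of libraries in ACM, at 160.8, 600.8 and 184.5 CPM. ANGPTL4, a secreted inhibitor of lipoprotein lipase, was also highest in replicate 2, at 222.5, 351.8 and 196.4 CPM. On CPM, ACM replicate 2 held the highest ACM value for 34.1% of the tested genes against 35.1% and 30.7% for replicates 1 and 3. Scaling to library size brings these shares near to one another, so they cannot show whether replicate 2 was unusual. The PDK4 call was lost when any 1 UCM library was left out, with an adjusted p-value of 0.129, 0.181 and 0.195 in edgeR without UCM replicates 1, 2 and 3, although the log2 FC stayed between 5.28 and 6.79 over all 6 such fits. It was kept in those without any 1 ACM library, and without ACM replicate 2 the log2 FC was 5.28 with an adjusted p-value of 0.00142.

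**Figure D1:**
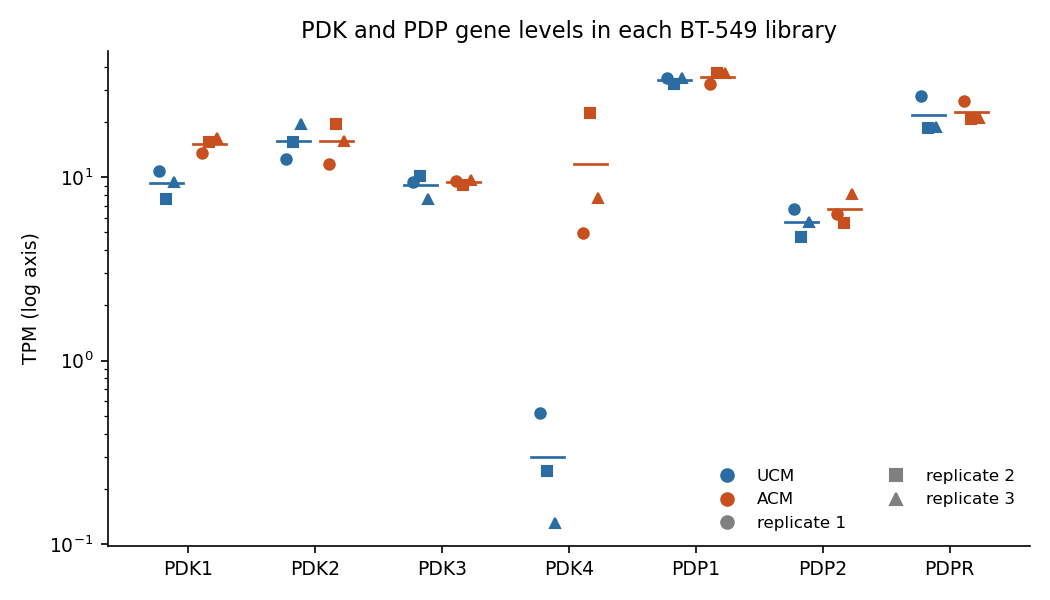
Level of each of the 7 genes in TPM (transcript level scaled by effective length and library sum, log axis) in every library. Points are single libraries, coloured by medium and shaped by replicate number. The ACM points of PDK4, 4.99 to 22.48 TPM, sit far above its UCM points, 0.13 to 0.52 TPM, and PDK1 is the other gene without overlap on this scale.

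PDK1 (ENSG00000152256) lies on the plus strand at chr2:172555373-172608669. It had 750, 718 and 541 expected counts in ACM and 519, 349 and 358 in UCM. Scaled to CPM, the ACM libraries had 35.6, 40.4 and 29.4 and the UCM libraries 24.6, 18.8 and 20.9. The groups did not overlap, and the lowest ACM library exceeded the highest UCM library 1.20-fold. PDK1 rose by a log2 FC of 0.71 (SE 0.14) with an adjusted p-value of 0.0186 by edgeR's quasi-likelihood test. The direction was kept without each single library in turn, at 0.60 to 0.84. However, the adjusted p-value in edgeR was 0.054, 0.0732, 0.0812 and 0.0741 without ACM replicate 1, ACM replicate 2, UCM replicate 2 and UCM replicate 3, and it stayed below 0.05 without ACM replicate 3 or UCM replicate 1.

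RefSeq gave 2 start sites for PDK1, and the promoter window of one held a pair of hypoxia response element cores. That stretch is shown because PDK1 is known as a HIF target, with the matches, read as ACGTG on the minus strand, in capitals. It lies at chr2:172556065-172556094 (plus strand, GRCh38.p14, from RefSeq), from base -25 to base 5 around the start site at position 172556090.
PDK1 around the start: ctgcccgcCACGTccctCACGTaccactcg
The matches begin at bases -17 and -8, and no other motif of the 4 was found in that window, which is 77.0% GC. The window at the other start site, 36.3% GC, held none. A core of this kind is in 48.4% of all promoters, as given above, and the windows searched for PDK2, PDK3, PDP2 and PDPR each included 1 with at least 2 matches, so its presence does not set PDK1 apart.

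PDK3 (ENSG00000067992, chrX:24465244-24550466, plus strand), a kinase with high activity and a restricted tissue range, lay apart between the media by a small margin. It was at 39.8, 39.0 and 38.9 CPM in ACM and at 34.6, 30.9 and 31.9 CPM in UCM, so the 3 ACM values nearly coincided. Few genes were so even, since 1.25% of tested genes had a ratio of highest to lowest ACM library as small as 1.02. The log2 FC of 0.27 (SE 0.08) had an adjusted p-value of 0.0804 in edgeR and did not pass. On TPM, which divides by the gene's effective length, the media overlapped at 9.55, 9.09 and 9.64 against 9.42, 10.2 and 7.65. Without UCM replicate 1 the log2 FC was 0.33 with an adjusted p-value of 0.0364 in edgeR.

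PDK2 (ENSG00000005882, chr17:50094737-50112152, plus strand) is the most widely expressed kinase of the family. It was at 13.97, 15.5 and 16.3 CPM in ACM and at 12.2, 15.0 and 14.7 CPM in UCM, and the groups overlapped. The log2 FC was 0.13 (SE 0.13, edgeR adjusted p-value 0.603). PDK2 overlaps SAMD14 on the opposite strand, whose libraries summed to 565 expected counts in ACM and 420 in UCM, and the strand setting of the libraries was not stated, so reads from these genes cannot be told apart for certain. The expected count of PDK2 was not a whole number in any library, so reads shared with other genes entered it.

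The phosphatases showed no difference that passed. PDP1 (ENSG00000164951, chr8:93857807-93926068, plus strand), the calcium-sensitive catalytic subunit, was at 70.2, 82.7 and 81.6 CPM in ACM and at 77.6, 73.2 and 75.7 CPM in UCM. Its log2 FC was 0.05 (SE 0.08, edgeR adjusted p-value 0.769). PDP2 (ENSG00000172840, chr16:66878589-66895754, plus strand), the catalytic subunit known for its response to insulin, was at 16.8, 19.7 and 16.5 CPM in ACM and at 21.9, 16.7 and 16.6 CPM in UCM. UCM replicate 1 was the highest of the 6, the groups overlapped, and the log2 FC was -0.06 (SE 0.14, edgeR adjusted p-value 0.828). The sign of PDP2 turned on TPM, where the mean was 6.71 ± 1.29 in ACM and 5.70 ± 1.01 in UCM (SD, n = 3 each).

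PDPR (ENSG00000090857, chr16:70114332-70162537, plus strand), which restrains the PDP1 catalytic subunit, was highest in replicate 1 of both media. It was at 133.3, 107.6 and 105.1 CPM in ACM and at 136.2, 91.3 and 94.8 CPM in UCM. Replicate 1 exceeded the next library of its medium by at least 1.24-fold. That held for 660 of the tested genes (4.57%), and replicate 1 was highest in both media, by any margin, for 2801 (19.4%). The log2 FC was 0.10 (SE 0.17, edgeR adjusted p-value 0.782). The pseudogene PDPR2P, a near copy elsewhere on the chromosome, held 41, 29 and 42 expected counts in ACM and 51, 37 and 17 in UCM, against 1625 to 2875 for PDPR. Expected counts of PDPR were not whole in any library, so its level depends in part on how shared reads were divided.

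In all, edgeR's quasi-likelihood test called 2 of the 7 genes higher in ACM (adjusted p-value of 0.05 or less) and none lower, while it called 5.56% of all tested genes, 3.35% as higher and 2.21% as lower. PDK4 could pass the filter on low counts only where it was high, so the counts describe the 7 genes and are not support for a difference. With the p-value left unadjusted, 3 of the 7 were higher and none lower, against 23.3% of tested genes in either direction, and DESeq2 called the same number higher as edgeR, 2, and none lower. Taking an unadjusted p-value of up to 0.05 together with a change of 0.58 or more on the log2 scale, 2 of the 7 were higher and none lower, against 4.12% and 1.71% of the tested genes. All 3 ACM libraries lay above all 3 UCM libraries for 3 of the 7 genes, and this was so for 13.9% of all genes tested. The median log2 FC of the 7 was 0.13, and that of all tested genes was -0.01.

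**Figure D2:**
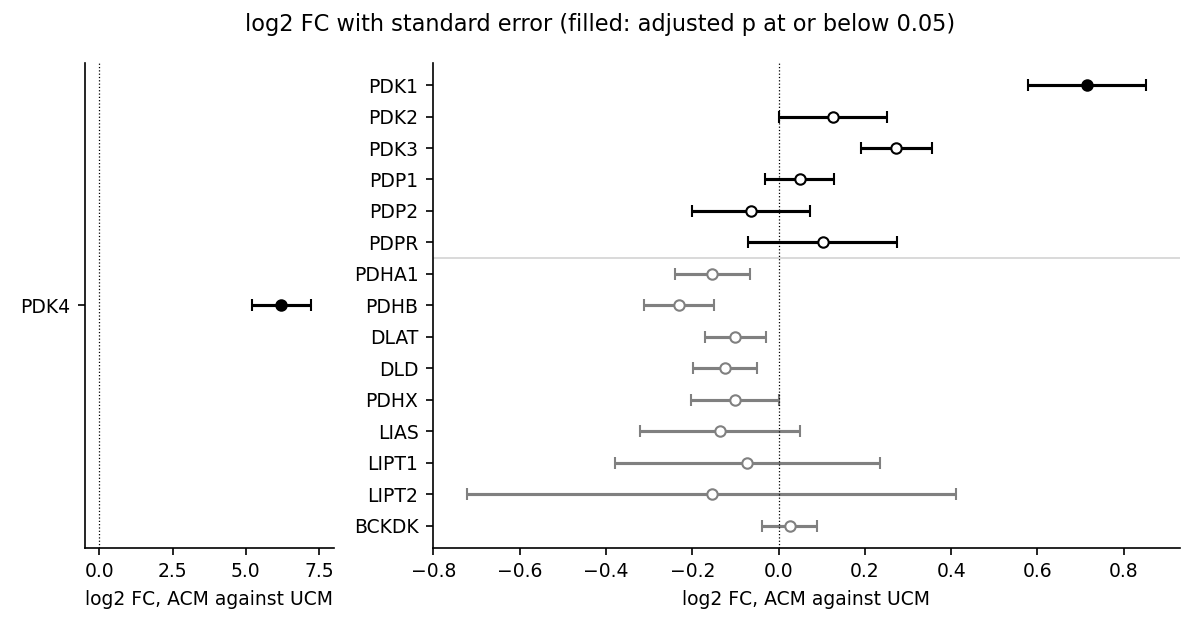
Difference between the media as log2 FC, with bars of 1 standard error, for the 7 genes and for genes of the PDH complex, from edgeR. Filled points passed the adjusted p-value of 0.05. PDK4 at 6.22 and PDK1 at 0.71 are filled, and the subunits of the complex lie slightly below 0 with none filled.

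Levels of different genes were compared as TPM, since it takes gene length into account. In UCM, PDP1 led at 33.8 TPM on average, followed by PDPR at 21.7, PDK2 at 15.8, PDK1 at 9.26, PDK3 at 9.09, PDP2 at 5.70 and PDK4 at 0.300. The libraries of PDPR and PDK2 overlapped in that order, as did those of PDK1 and PDK3. In ACM the order was PDP1 at 35.3, PDPR at 22.6, PDK2 at 15.7, PDK1 at 15.1, PDK4 at 11.7, PDK3 at 9.43 and PDP2 at 6.71. PDK2, PDK1 and PDK4 each overlapped the next gene in ACM. The place of PDK4 rested on ACM replicate 2, where it was at 22.48 TPM, above every other kinase. In ACM replicates 1 and 3 PDK4 was still the lowest of the 7, at 4.99 and 7.75 TPM beside 6.32 and 8.15 TPM for PDP2.

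Summed over the 4 kinases, PDK transcripts came to 39.9, 66.6 and 49.5 TPM in ACM and to 33.2, 33.6 and 36.6 TPM in UCM. The sums did not overlap. Of the mean difference of 17.5 TPM, PDK4 made up 11.4 TPM (65.3%) and PDK1 5.84 TPM (33.3%), while PDK3 added 0.337 TPM and PDK2 took away 0.103 TPM. ACM replicate 2 carried much of this: without it the difference was 10.2 TPM, of which PDK4 made up 6.07 TPM (59.4%) and PDK1 5.62 TPM (55.0%), and PDK2 took away 1.98 TPM. The signs of PDK2 and PDK3 turned in some of the other sums with 1 library left out, PDK2 to 1.84 TPM without ACM replicate 1 and to 1.69 TPM without UCM replicate 3, and PDK3 to -0.383 TPM without UCM replicate 3. Without PDK4, the sum of the other kinases was 34.9, 44.1 and 41.7 TPM in ACM and 32.7, 33.4 and 36.4 TPM in UCM, and the groups overlapped. No test was run on these sums.

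The makeup of the kinase pool changed with the PDK4 level. PDK4 was 12.5%, 33.8% and 15.7% of kinase TPM in ACM and 1.57%, 0.744% and 0.356% in UCM. PDK2, which led the pool in each UCM library, made up 37.7%, 46.2% and 53.1% there and 29.7%, 29.3% and 32.0% in ACM. The effective length of PDK2 in UCM was 1416, 1363 and 1083 bases. TPM divides by this length, and PDK2 in UCM spread more in TPM (12.51, 15.53 and 19.4) than in CPM (12.22, 15.0 and 14.69). Shares of 1 pool sum to a fixed total, so a larger PDK4 share lowers the others, and the PDK2 level itself was 15.7 ± 3.83 TPM in ACM and 15.8 ± 3.45 TPM in UCM (SD, n = 3 each). PDK1 kept a similar range of shares, from 23.3% to 33.9% in ACM and from 22.7% to 32.4% in UCM.

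The phosphatase pool, PDP1 plus PDP2, was 38.4, 42.5 and 45.0 TPM in ACM and 41.3, 36.8 and 40.3 TPM in UCM. PDP1 made up 81.9% to 86.7% of it in ACM and 83.7% to 87.2% in UCM. The ratio of kinase to phosphatase TPM was 1.04, 1.56 and 1.10 in ACM and 0.804, 0.913 and 0.908 in UCM, so kinase transcripts were the more abundant in each ACM library and the less abundant in each UCM library. Set against PDHA1, the E1 alpha subunit that the kinases phosphorylate, kinase TPM was 26.1%, 47.3% and 31.9% in ACM and 21.9%, 18.1% and 19.3% in UCM. These are ratios of transcripts, and neither protein nor enzyme activity was measured in the files.

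**Figure D3:**
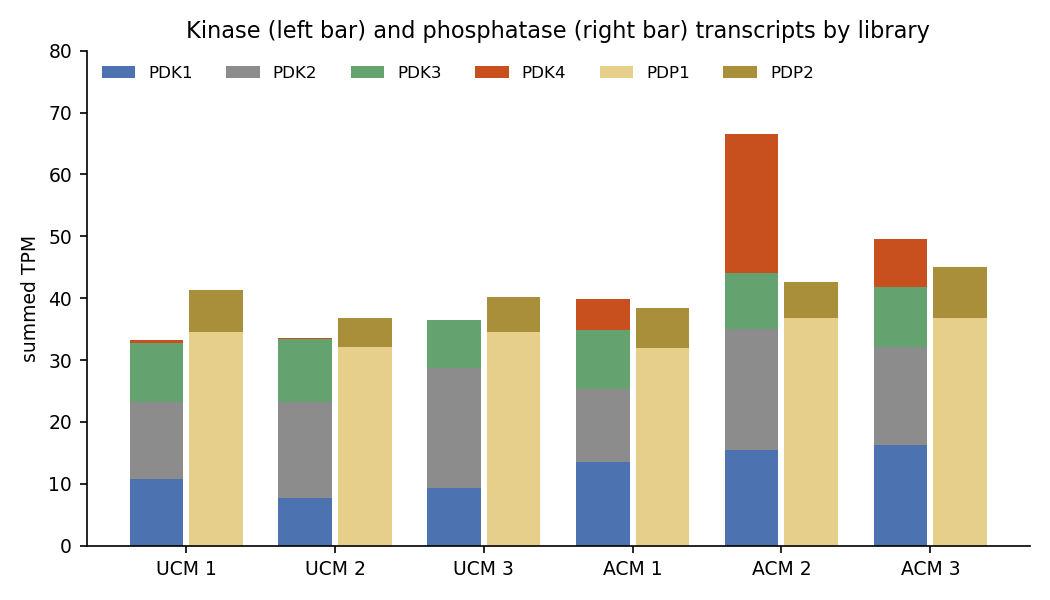
Summed TPM of the kinases (left bar, PDK1 to PDK4 stacked) and of the phosphatases (right bar, PDP1 and PDP2 stacked) in each of the 6 libraries. The kinase bar passes the phosphatase bar in the 3 ACM libraries, most in replicate 2 at 66.6 TPM, and stays below it in the 3 UCM libraries.

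The change of PDK4 was smaller on TPM than on CPM. The ratio of the ACM to the UCM mean was 76.4 in CPM and 39.1 in TPM. RSEM's effective length of PDK4, an average over its 5 listed transcripts weighted by their estimated abundance, was 2858, 3221 and 3325 bases in ACM and 788, 3321 and 1860 bases in UCM. UCM replicates 1 and 3, the ones with short lengths, rested on 6 and 3 counts. The ratio of longest to shortest was 4.22, which 1.02% of tested genes reached, against a median of 1.13. For PDK3 the ratio of means fell from 1.21 in CPM to 1.04 in TPM, and for PDK1 it was 1.64 and 1.63. The ratio of longest to shortest effective length was nonetheless 1.43 for PDK1, beside 1.40 for PDK3. ACM replicate 3, with the shortest PDK1 length of 2613 bases, was the lowest ACM library in CPM (29.4) and the highest in TPM (16.26).

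**Figure D4:**
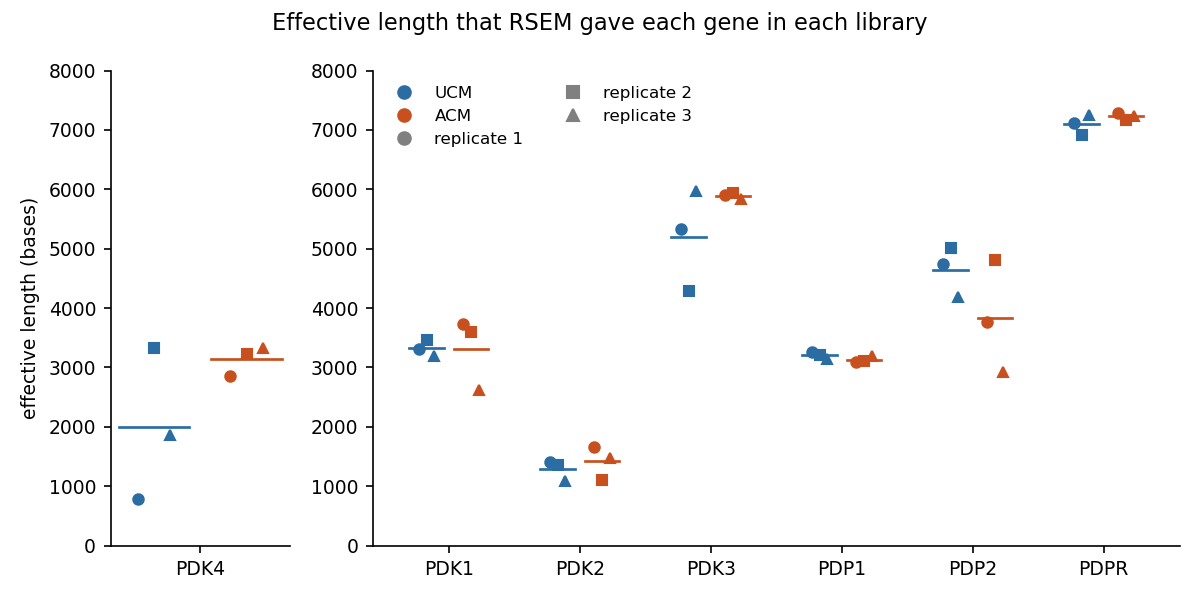
Effective length in bases of PDK4 (left) and of the other 6 genes (right) in each library, coloured by medium and shaped by replicate. PDK4 spans 788 to 3325 bases with its shortest lengths in UCM, whereas PDP1 and PDPR vary by 1.05-fold.

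The genes with the profile most like PDK4 were found by the root mean square difference over the 6 libraries in log2 CPM centred on the UCM mean. These were MT1M, a metallothionein, at 0.44, the gene ENSG00000290183 at 1.16 and TNFAIP2, a cytokine-induced gene, at 1.40. MT1M was at 2.04, 10.98 and 3.26 CPM in ACM and listed at 0 in each UCM library. TNFAIP2 was at 7.22, 22.6 and 9.73 CPM in ACM and at 1.47, 0.645 and 0.350 CPM in UCM. For PDK1 the nearest were the lncRNA ENSG00000275494 at 0.05, AK4, a mitochondrial adenylate kinase, at 0.07 and FHOD3, a formin, at 0.08. AK4 was at 65.8, 75.4 and 53.1 CPM in ACM and at 42.0, 32.6 and 35.7 CPM in UCM. These genes were picked for their likeness over the same libraries, so their shared pattern is no further evidence.

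The nearest tested gene on each side of the called genes was read from the same fit, and untested genes in between were passed over. On either side of PDK4, PON2, 148170 bases away, had a log2 FC of -0.04 (SE 0.07, edgeR adjusted p-value 0.800) and SLC25A13, 523704 bases away, one of -0.18 (SE 0.07, adjusted p-value 0.164). The antisense gene PDK4-AS1 held 2 counts over the ACM libraries and 0 over the UCM libraries. Beside PDK1, ITGA6 had a log2 FC of -0.11 (SE 0.12, edgeR adjusted p-value 0.624), and MAP3K20, 466766 bases away, rose by 0.36 (SE 0.08, adjusted p-value 0.0335). That call was lost without ACM replicate 2, ACM replicate 3, UCM replicate 2 or UCM replicate 3, at adjusted p-values in edgeR of 0.119, 0.0883, 0.151 and 0.0922.

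The PDH complex itself, the substrate of these enzymes, had no gene that passed. Of 9 genes for its subunits and their lipoylation, 8 were tested and PDHA2, the testis form of E1 alpha, was at 0 in every library. By edgeR's quasi-likelihood test 0 were called higher and 0 lower, with 1 of 8 lower at an unadjusted p-value of up to 0.05, against 23.3% of all tested genes in either direction, and DESeq2 also called 0. All 8 had a negative log2 FC, with a median of -0.13 beside -0.01 over all tested genes. PDHB, the E1 beta subunit, had 82.0 ± 7.26 CPM with UCM and 69.8 ± 2.48 with ACM (SD, n = 3 each), without overlap, and its log2 FC was -0.23 (SE 0.08, edgeR adjusted p-value 0.120). Without UCM replicate 1 its adjusted p-value was 0.0362. PDHA1 had a log2 FC of -0.15 (SE 0.09, edgeR adjusted p-value 0.334), and those of DLAT, DLD and PDHX, the other core subunits, were -0.10, -0.12 and -0.10 with adjusted p-values of 0.440, 0.356 and 0.613. BCKDK, the related kinase of the branched-chain complex, was at 113.5 CPM in ACM and 111.5 in UCM (log2 FC 0.03, SE 0.06, edgeR adjusted p-value 0.851), and PPM1K, the matching phosphatase, was too low to test at 0.135 and 0.147 CPM.

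Among 9 genes for pyruvate entry and its other fates, 1 was called higher and 0 lower in edgeR, and the median log2 FC was 0.13. Over all tested genes, 3.35% were called higher and 2.21% lower. SLC16A3, the lactate exporter MCT4, rose from 0.758 ± 0.256 to 2.80 ± 1.19 CPM (log2 FC 1.86, SE 0.41, edgeR adjusted p-value 0.0304). This call was lost without ACM replicate 1, ACM replicate 2, UCM replicate 2 or UCM replicate 3, with adjusted p-values of 0.06, 0.135, 0.0993 and 0.107. PKM, the pyruvate kinase, and LDHA, the lactate dehydrogenase subunit, were the most abundant and did not pass, with log2 FCs of 0.13 (SE 0.07, edgeR adjusted p-value 0.316) and 0.23 (SE 0.09, adjusted p-value 0.135).

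Of 12 receptors and factors known to act on PDK genes, 11 were tested, 2 were called higher and 0 lower, and the median was 0.21. All tested genes gave 3.35% called higher and 2.21% lower. Of the 11, 8 had a positive log2 FC and 3 a negative one. NR3C1 was lower without overlap, at -0.25 (SE 0.07, edgeR adjusted p-value 0.071). PPARA, PPARD, ESRRA and FOXO3 were higher without overlap and did not pass, at 0.49, 0.274, 0.215 and 0.101. Their edgeR adjusted p-values were 0.0865, 0.0865, 0.105 and 0.445. On TPM the media overlapped for PPARA, with means of 2.70 in ACM and 2.47 in UCM. FOXO1 was at -0.28 (SE 0.18, edgeR adjusted p-value 0.376) and HIF1A at -0.07 (SE 0.08, adjusted p-value 0.67). EPAS1, the gene of HIF-2 alpha, rose from 228.9 ± 16.5 to 391.6 ± 61.3 CPM (log2 FC 0.77, SE 0.11, edgeR adjusted p-value 0.00655), and stayed called without each single library. MYC rose by 0.30 (SE 0.07, edgeR adjusted p-value 0.0371), and this call was lost without ACM replicate 2, ACM replicate 3, UCM replicate 2 or UCM replicate 3, at adjusted p-values of 0.104, 0.104, 0.188 and 0.0778.

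Of 15 other genes known as PPAR targets, 13 were tested, 5 were called higher and 0 lower, and the median log2 FC was 0.20. The shares over all tested genes were 3.35% higher and 2.21% lower. ANGPTL4 rose by 3.21 (SE 0.24, edgeR adjusted p-value 0.00294), from 27.7 ± 1.84 to 256.9 ± 83.2 CPM (SD, n = 3 each). CPT1A, which admits fatty acids to mitochondria, rose by 0.75 (SE 0.07, edgeR adjusted p-value 0.00100). ACAA2 and ACADVL, enzymes of fatty acid beta-oxidation, rose by 0.68 (SE 0.10, edgeR adjusted p-value 0.00477) and 0.48 (SE 0.10, adjusted p-value 0.0191), and the remaining call was SLC25A20, the carnitine carrier, at 0.48. The ACADVL call was lost without ACM replicate 2, UCM replicate 2 or UCM replicate 3 (edgeR adjusted p-values 0.0801, 0.0886 and 0.0714), and that of SLC25A20 without any 1 library but UCM replicate 1 (0.0575 to 0.089). PLIN2 had a log2 FC of 1.96 (SE 0.62) that did not pass (edgeR adjusted p-value 0.161), and ACM replicate 2 was its highest library. The list had 3 calls without UCM replicate 2 and 3 without UCM replicate 3.

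Of 12 other genes known as HIF targets, 11 were tested, 1 was called higher and 0 lower by edgeR's quasi-likelihood test, and the median log2 FC was 0.53. Among all tested genes the calls came to 3.35% higher and 2.21% lower. At an unadjusted edgeR p-value of up to 0.05, 6 of the 11 were higher and 0 lower, against 23.3% of all tested genes in either direction. A positive log2 FC was seen for 9 of the 11 and a negative one for 2. BNIP3, a mitophagy receptor, rose from 48.8 ± 1.96 to 79.4 ± 18.8 CPM (log2 FC 0.70, SE 0.16, edgeR adjusted p-value 0.0424). The adjusted p-value of BNIP3 was above 0.05 in 5 of the 6 fits that left out 1 library, as high as 0.169 without UCM replicate 2, and was 0.0129 without ACM replicate 3. P4HA1, a collagen prolyl hydroxylase, had a log2 FC of 0.47 (SE 0.12) just short of the threshold (adjusted p-value 0.0553), and PFKFB3, a regulator of glycolysis, one of 0.11 (SE 0.08, adjusted p-value 0.472). DESeq2 called 6 of the list, as did edgeR without ACM replicate 3, and edgeR called 0 without UCM replicate 2 or without UCM replicate 3.

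Of 11 other forkhead (FOXO) and glucocorticoid targets, a group included because PDK4 also answers to these factors, 9 were tested and edgeR called 0 higher and 0 lower, with 1 of 9 lower at an unadjusted p-value of up to 0.05, again against 23.3% of all tested genes in either direction. DESeq2 also called 0, and the median log2 FC was 0.05. CITED2 and PER1, the most abundant, had log2 FCs of -0.08 (SE 0.11, edgeR adjusted p-value 0.735) and 0.05 (SE 0.12, adjusted p-value 0.842). Without UCM replicate 1 the list had 1 gene called lower.

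**Figure D5:**
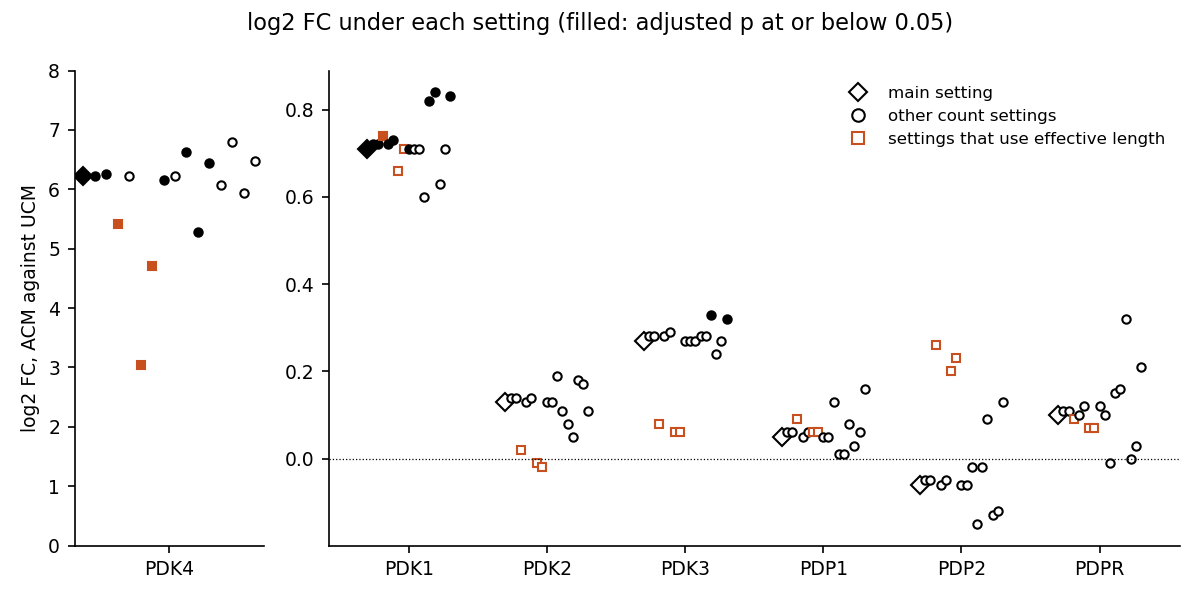
Difference between the media as log2 FC for PDK4 (left) and the other 6 genes (right) under each setting tried. The diamond is the setting reported, circles are other fits on counts, squares are settings that use effective length, and filled symbols passed the adjusted p-value of 0.05. PDK4 stays between 3.05 and 6.79 and PDK1 between 0.60 and 0.84, while PDK2, PDP2 and PDPR fall on both sides of 0.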

How the data were processed

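RNA-seq of BT-549 cells was polyA-enriched and paired-end. The authors used Trim Galore for trimming, STAR for alignment (GRCh38) and RSEM for gene levels, in versions not given in the sources used here. For each library they deposited the expected count (reads per gene, shared ones divided between genes), the TPM (scaled by effective length and library sum) and the effective length. The deposited table of the authors' own ACM to UCM comparison, with fold changes and p-values, was not used. Gene identifiers of 61547 of the 63140 genes matched GENCODE 44 with version, and 62541 regardless of version.

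After rounding, expected counts went into edgeR 4.0.16 under R 4.3.3 (filterByExpr, TMM, medium as the single term of a robust quasi-likelihood fit, Benjamini-Hochberg adjustment over 14451 genes). CPM used TMM library sizes. The biological coefficient of variation was 0.115. Groups did not overlap where each ACM library lay above, or each below, every UCM library in CPM. Alternatives used limma 3.58.1, DESeq2 1.42.0, other filters, a replicate block and each library left out.

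The 7 genes, the lists and the rule for named genes were chosen with earlier results of these data known. Lists were typed by hand. The rule names all 7 genes, and up to 4 called genes of each list with the largest log2 FC (or the 2 most abundant where fewer than 2 were called). It also names core PDH subunits, BCKDK, PPM1K, the nearest tested neighbours of called genes, the 3 genes most like PDK4 and PDK1, and overlapping or near-identical genes. SLC25A20, PLIN2, NR3C1, FOXO1, HIF1A, PPARA, PPARD, ESRRA, FOXO3 and the cell markers were named after their values were seen. log2 CPM for likeness used a prior count of 2. RefSeq promoters (GRCh38.p14) span 250 bases before to 50 after a start. Intervals on counts are exact Poisson at 95%.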

Additional observations from a re-analysis of the deposited data

How the results depend on the processing

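The UCM libraries held 3 to 11 counts of PDK4, which limits its fold change. The number of the 7 genes called higher, 2, was also 2 with RLE size factors, DESeq2, DESeq2 with effective lengths, the replicate block and without replicate 1 of both groups (the last chosen after seeing the data). It was 1 with every gene of at least 1 count, 1 with at least 10 counts in every library (PDK4 then not tested), 1 with limma on log2(TPM + 1), 1 on log2(TPM + 0.1) and 0 with glmTreat against 0.58, and ran from 0 to 2 with 1 library left out, reaching 0 without UCM replicate 2 or 3. None was called lower under any of these. PDK1 kept its direction and was past the threshold in 8 of 15 alternatives, the one added after seeing the data aside, with 0.66 (adjusted p-value 0.0535) and 0.71 (0.0525) in limma on TPM, 0.71 (1.0) in glmTreat, and 0.60 to 0.84 with 1 library left out. PDK4 was past it in 9 of 14, and not with every gene (6.22, 0.0753), glmTreat (6.22, 0.232) or without UCM replicate 1, 2 or 3 (0.129, 0.181 and 0.195). It also missed without replicate 1 of both groups (6.47, 0.103), and ran from 5.28 to 6.79 with 1 library left out. PDK3 passed without UCM replicate 1 (0.33, 0.0364) and without replicate 1 of both groups (0.32, 0.0374), ran from 0.24 to 0.33 with 1 library left out, and was 0.06 to 0.08 with effective lengths. Directions turned for PDK2 in limma on TPM (-0.01 and -0.02; 0.05 to 0.19 with 1 library left out), for PDP2 in DESeq2 with lengths (0.26), limma on TPM (0.20 and 0.23), without UCM replicate 1 (0.09) and without replicate 1 of both groups (0.13), with -0.15 to 0.09 over single libraries left out, and for PDPR without ACM replicate 1 (-0.01) or UCM replicate 2 (0.00), with -0.01 to 0.32. PDP1 ran from 0.01 to 0.13. CITED2 ran from -0.19 to 0.03 with 1 library left out. PER1 was -0.02 in DESeq2 with lengths, -0.03 in both fits of limma on TPM and -0.06 without replicate 1 of both groups, and ran from -0.02 to 0.12. CDH2 was 0.00 with RLE and DESeq2, 0.01 with lengths and with 10 counts, and 0.07 without replicate 1 of both groups, and ran from -0.04 to 0.08. Of the factors acting on PDK genes, 1 was called lower with every gene and under the block, and 0 otherwise. Over all genes, 484 higher and 320 lower became 726 and 420 in DESeq2, 1045 and 679 with every gene, 230 and 132 or 234 and 138 in limma on TPM, 10 and 9 in glmTreat, 1017 and 726 without replicate 1 of both groups, and 125 to 738 and 62 to 572 with 1 library left out. With replicate number as a block they were 909 and 703. Deviations of same-numbered libraries correlated at 0.318, 0.035 and 0.177, and those of unlike numbers ran from -0.314 to 0.196. ACM replicate 3 correlated best with UCM replicate 2 (0.196). The labels name no pairs, so the main fit took none, and these values do not settle whether the wells were paired. Under the block PDK1 was 0.71 (0.00693) and PDK4 6.16 (4.4e-08). The cause of these changes was not tested.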
